A study of Mus musculus with 30 samples.

Results

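The response to doxycycline induction of the reprogramming factors OCT4, SOX2, KLF4 and MYC (OSKM) was read in undifferentiated iPSCs. These cells had not been taken out of 2i/LIF before they were re-seeded (0 h). The comparison is between cells grown for 48 h in serum/LIF with doxycycline (+dox), which switches on the OSKM transgenes, and the same cells grown without it (–dox). It uses 4 of the 30 RNA-seq samples of the series, 2 replicates for each condition. All genes with at least 1 FPKM in either condition were kept, 12751 of the 22477 genes in the table. FPKM counts sequenced fragments relative to the length of the transcript and to all fragments mapped, so levels can be set side by side between genes.

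Both groups were doxycycline-inducible secondary mouse iPSCs, which are iPSCs derived from cells that already carried the inducible OSKM cassette. A GFP reporter sat in the cells' own Nanog gene and a nuclear RFP was expressed at all times. The cells were maintained on CF1 mouse embryonic fibroblast feeders in medium with 15% serum and LIF, and kept in 2i/LIF before the start of the time course. The –dox group was re-seeded into serum/LIF only, and the +dox group into serum/LIF with 2 µg/ml dox. The cells all come from one secondary line, and the transgene and the endogenous copy of each factor both count towards the same gene. No cells without the transgenes were given dox, so effects of dox itself and of OSKM cannot be told apart. The sources do not say whether feeders were present at re-seeding for RNA-seq. The other samples are a time course of 2i/LIF withdrawal from 0 to 96 h and cells re-seeded with or without dox after 24, 48 or 96 h of withdrawal.

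2i is a pair of inhibitors of MEK and GSK3 that, with LIF, holds mouse pluripotent cells in the naive state. MEK inhibition blocks ERK signalling, and ERK targets return when cells are moved to serum/LIF. OCT4, SOX2 and NANOG maintain the pluripotent network, and the dose of OCT4 and SOX2 is known to matter, since both too little and too much of either disturbs self-renewal. Cells at 0 h already express the endogenous factors.

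The table gives 1 combined value for each pair of replicates. There is therefore no spread between replicates, and no difference below was tested. A gene is called higher or lower with dox where its 2 values stand in a ratio of 2 or more, with nothing added to them. In bulk RNA, fewer cells of a type and less RNA per cell cannot be told apart. The values summed to 665942 FPKM without and 780691 FPKM with dox, and 3282 and 3980 genes were listed at 0.

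The cells were pluripotent by their markers in both conditions. The 8 markers of pluripotent cells (Pou5f1, Sox2, Nanog, Esrrb, Zfp42, Dppa5a, Tdgf1 and Utf1) summed to 6649 FPKM without and 6856 FPKM with dox, and none was under 1 FPKM. Singly they were less even, with 5 of the 8 lower in +dox, 3 higher and a median log2 ratio of -0.62. Most of each sum came from Dppa5a and Utf1, so the sums say little about the other markers. Fibroblast and feeder markers summed to 6.48 FPKM in –dox and 10.5 FPKM in +dox, with 8 and 7 of 10 under 1 FPKM, whereas the same markers stood at 793.4 FPKM in the 2i/LIF cells before re-seeding. The 2i/LIF levels given below may therefore include RNA of other cells, and its part in them was not tested. All 4 mesoderm markers were under 1 FPKM in both conditions. Primitive endoderm markers summed to 4.59 and 5.05 FPKM, trophoblast markers to 4.14 and 3.05 FPKM, and neurectoderm markers to 11.1 and 4.76 FPKM, with Neurog2 at 0 in both. Of the macrophage and blood markers Cd68 alone was over 1 FPKM, at 58.7 FPKM without and 90.1 FPKM with dox, and Hbb-bs and Lyz2 were at 0.

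With dox, 462 genes were at least 2-fold higher (3.62% of 12751) and 715 were at least 2-fold lower (5.61%). The median log2 ratio of all genes was 0.05, and single genes ran from -5.02 to 5.42. Above 0 were 6922 genes and below it 5816. These shares and signs of all genes are the background for the list counts below. After scaling by the sum of FPKM the counts became 275 higher and 1171 lower, and the median of all genes moved to -0.19. After scaling by the upper quartile they were 358 and 885, and by median ratios 435 and 752. Lower genes were the more numerous each time, but the size of their excess depends on the scaling. Values below are unscaled.

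**Figure D1:**
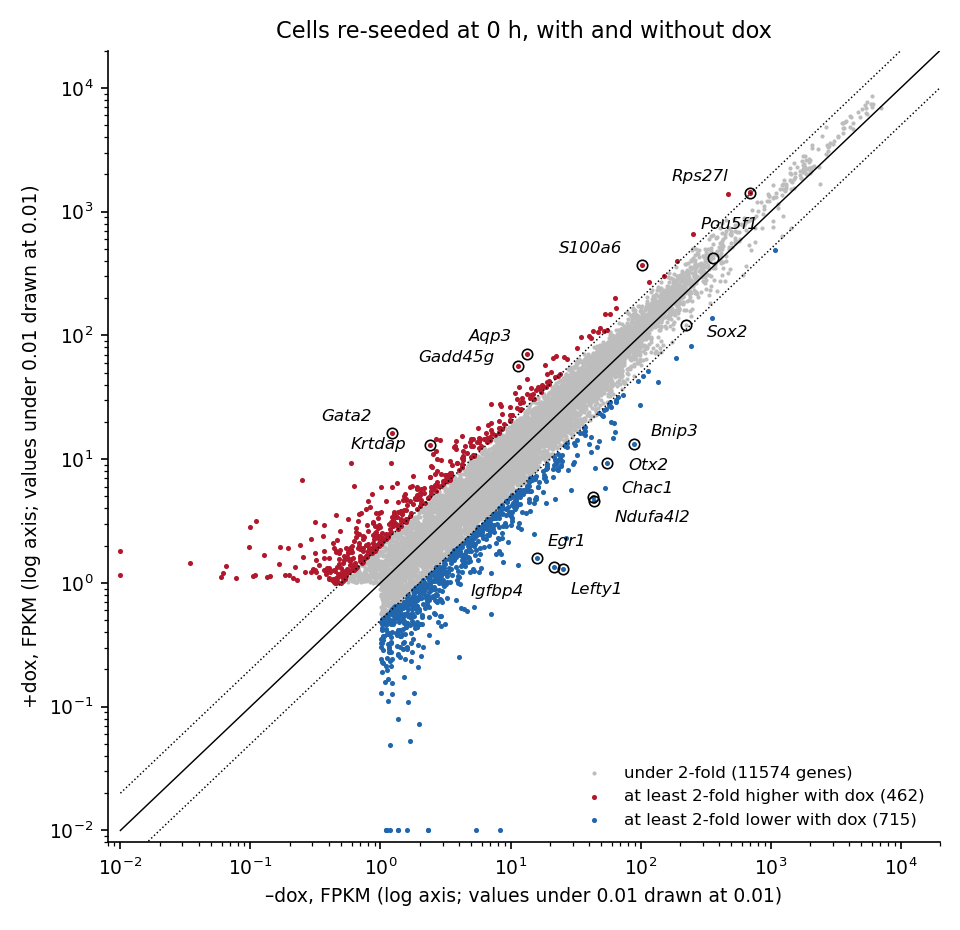
Expression of the 12751 genes in –dox (horizontal axis) and +dox (vertical axis) cells at 0 h, in FPKM on log axes, 1 point per gene. The solid line marks equal values and the dotted lines 2-fold; 462 genes lie above the upper dotted line and 715 below the lower one, and the named genes are circled.

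Most of the 2-fold differences were in genes of low expression. Among genes whose higher value was between 1 and 2 FPKM, 10.7% were higher and 17.4% lower with dox. The shares were 1.94% and 2.56% between 10 and 50 FPKM, and 1.23% and 1.19% at 50 FPKM or more. Of the 7244 genes that reached 10 FPKM, 124 (1.71%) were higher and 153 (2.11%) lower. Short transcripts leaned towards +dox, with a median log2 ratio of 0.29 for genes of at most 1000 bases and of 0.08 for those longer than 4000 bases, among genes that reached 10 FPKM. At 24 h these medians were 0.17 and -0.00, and the part of transcript length in any result below was not tested.

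The OSKM genes themselves differed by less than 2-fold, and added expression with dox was not visible in their summed level, 693.3 FPKM in –dox and 632.7 FPKM in +dox. Pou5f1, which encodes OCT4, was at 359.6 FPKM in –dox and 425.4 FPKM in +dox. Sox2 was at 224.4 and 121.9 FPKM, 1.84-fold lower with dox, and it passed 2-fold after scaling by the sum of FPKM, with a log2 ratio of -1.11, where that of Pou5f1 was 0.01. Klf4 stood at 84.8 and 66.7 FPKM, and Myc at 24.5 and 18.7 FPKM. Pou5f1 was thus the only one of the 4 with the higher value in +dox. In the re-seedings at 24, 48 and 96 h, 0, 3 and 1 of the 4 were at least 2-fold higher with dox. The median log2 ratios of the 4 were 0.26, 1.25 and 0.14 at these times, against -0.37 at 0 h. In the 2i/LIF cells before re-seeding Myc was at 2.53 FPKM, and Pou5f1, Sox2 and Klf4 at 199.3, 247.5 and 92.7 FPKM. Mycn, the Myc relative that is prominent in pluripotent cells, was at 45.04 FPKM in –dox and 8.45 FPKM in +dox, 5.33-fold lower.

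Naive pluripotency genes were mostly somewhat lower with dox. Of 24 genes, 7 had the higher value in +dox and 17 in –dox, with a median log2 ratio of -0.23. At least 2-fold lower were 3 (12.5%, against 5.61% of all genes). Gbx2, a homeobox gene and LIF target, was at 29.0 FPKM in –dox and 5.68 FPKM in +dox. Sall4, which encodes a zinc-finger partner of OCT4, was at 104.6 and 46.7 FPKM, and Dppa2 at 65.0 and 30.1 FPKM. The factors at the centre of the network differed less and in both directions. Nanog was at 120.3 FPKM in –dox and 87.8 FPKM in +dox, Zfp42 at 246.4 and 142.4 FPKM, Esrrb at 151.3 and 183.3 FPKM, and Tfcp2l1 at 32.1 and 56.1 FPKM. None of these 4 passed 2-fold unscaled. Scaled by the sum of FPKM, Zfp42 did, with a log2 ratio of -1.02, and 8 of the 24 naive genes were then at least 2-fold lower. At 48 h the same list had a median log2 ratio of 1.02, and 12 of 23 genes were at least 2-fold higher with dox.

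Among the genes of the formative state, which follows the naive one, Otx2 and Lef1 stood out. Otx2, which encodes the factor that directs OCT4 to formative enhancers, was at 55.2 FPKM in –dox and 9.26 FPKM in +dox, 5.96-fold lower. Lef1, a nuclear effector of WNT signalling, was at 7.03 and 0.56 FPKM, 12.6-fold lower. The log2 ratios of the other 9 formative genes tested ran from -0.83 for Foxd3 to 1.69 for Cdh2, which was at 0.38 and 1.24 FPKM and was the only one at least 2-fold higher. The de novo DNA methyltransferases differed little, with Dnmt3a at 38.3 and 31.0 FPKM, Dnmt3b at 59.0 and 61.3 FPKM and Dnmt3l at 420.6 and 305.5 FPKM. No gene of the DNA methylation machinery passed 2-fold, out of 15 tested. Of the WNT targets, Axin2, a feedback inhibitor of the pathway, was at 2.95 FPKM without and 1.04 FPKM with dox, and Axin2 and Lef1 were the 2 of 10 that were lower.

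Among the signalling genes, the ligand, inhibitors and targets of the NODAL pathway were lower with dox. NODAL is a TGF-β family ligand that pluripotent cells secrete, LEFTY1 and LEFTY2 are its secreted antagonists and its targets, and SMAD7 lies downstream. Nodal itself was at 30.2 FPKM in –dox and 9.21 FPKM in +dox. Lefty1 (chromosome 1, 180935022 to 180938400 in mm10) was at 25.2 and 1.29 FPKM, 19.5-fold lower, the largest ratio of any gene that reached 10 FPKM. Lefty2, which lies next to it (180893108 to 180899103), was at 22.2 and 4.76 FPKM. These neighbours are close in sequence, and reads that match both could be split between them. Smad7 was at 30.6 and 13.5 FPKM. Of the 17 genes tested 5 (29.4%, against 5.61% of all genes) were at least 2-fold lower with dox, these 4 among them. None was at least 2-fold higher. Tdgf1, the NODAL co-receptor, was at 611.9 and 310.7 FPKM, 1.97-fold lower and so just short of the threshold.

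The receptors and transducers of the same pathway did not share this difference. Acvr1b was at 13.2 FPKM in –dox and 12.4 FPKM in +dox, Smad2 at 12.5 and 14.4 FPKM, Smad3 at 4.06 and 4.31 FPKM, Smad4 at 25.8 and 33.9 FPKM, and Foxh1, the DNA-binding partner of the SMADs, at 45.4 and 63.5 FPKM. The median log2 ratio of all 17 genes was therefore only -0.18. In the BMP branch of the family 2 of 13 genes were lower, Id3 (5.38 and 2.38 FPKM) and Smad7, and the median was -0.00.

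ERK feedback genes and targets were lower as a group. Of 21 genes tested, 7 (33.3%, against 5.61% of all genes) were at least 2-fold lower with dox and none higher. A log2 ratio below 0 was found for 17, and the median was -0.53. Egr1, an immediate early transcription factor, was at 16.1 FPKM in –dox and 1.58 FPKM in +dox. The inhibitors of the pathway followed, with Spry2 at 46.4 and 12.5 FPKM, Spry4 at 41.5 and 11.5 FPKM and the ERK phosphatase Dusp6 at 41.9 and 15.1 FPKM. Ier2 was at 135.3 and 41.9 FPKM, Ier3 at 13.97 and 4.51 FPKM, and Etv1 at 6.80 and 3.30 FPKM. Other members of the list did not share the direction. Etv4 was at 126.3 FPKM in –dox and 164.1 FPKM in +dox, Dusp4 at 16.3 and 26.1 FPKM, and Fos at 3.66 and 3.75 FPKM. In the 2i/LIF cells before re-seeding Egr1 was at 0.61 FPKM, Spry4 at 0.45 FPKM and Dusp6 at 3.61 FPKM, so that for these 3 genes the +dox value lay between the 2i/LIF and the –dox value. For Spry2, Ier2 and Ier3 it lay below both. Egr1, Ier2 and Ier3 also stand in the list of immediate early genes, of which they were the 3 of 15 that were lower.

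**Figure D2:**
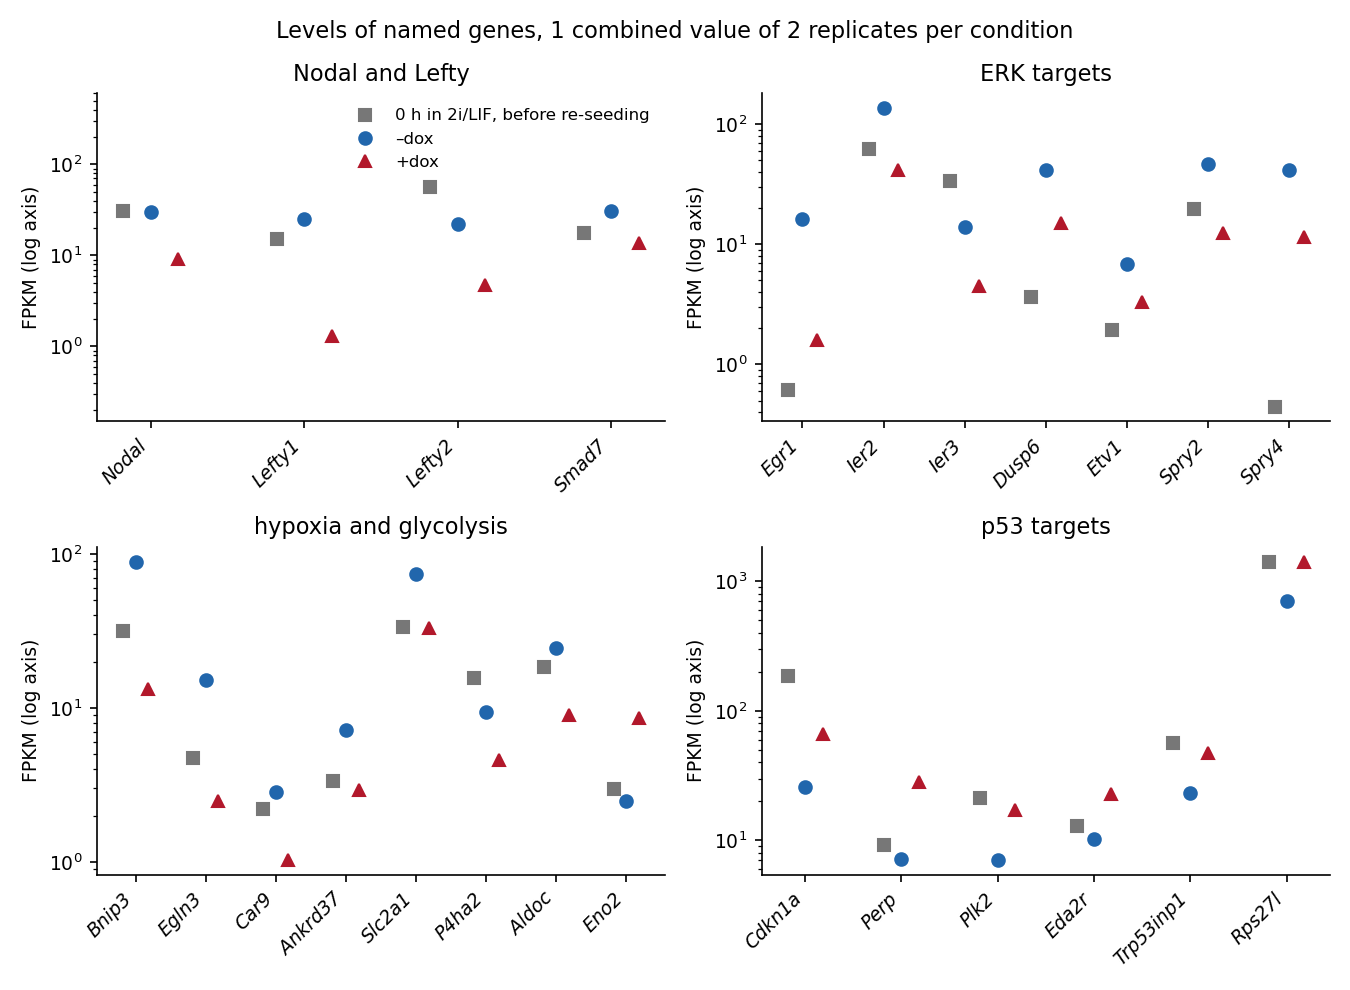
FPKM on a log axis of genes past 2-fold at 0 h from 4 lists, with 1 combined value per condition for 2i/LIF cells before re-seeding (grey squares), –dox (blue circles) and +dox (red triangles). The +dox value lies below the –dox value for every gene drawn in the NODAL and ERK panels and for all but Eno2 in the hypoxia panel, and above it for the 6 p53 targets.

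Genes of hypoxia and glycolysis were mostly lower with dox. Of 31 genes, 24 had a log2 ratio below 0, and the median was -0.58. At least 2-fold lower with dox were 7 (22.6%, against 5.61% of all genes), and 1 was higher. Bnip3, which encodes a mitophagy receptor, was at 88.9 FPKM in –dox and 13.3 FPKM in +dox, 6.69-fold lower. Egln3, an oxygen-sensing prolyl hydroxylase and itself a target of the hypoxia-inducible factor HIF-1, was at 15.3 and 2.49 FPKM. Slc2a1, the glucose transporter GLUT1, was at 73.5 and 33.0 FPKM, the aldolase gene Aldoc at 24.3 and 9.01 FPKM, and the collagen hydroxylase P4ha2 at 9.35 and 4.58 FPKM. Ankrd37 was at 7.17 and 2.95 FPKM and the carbonic anhydrase Car9 at 2.84 and 1.03 FPKM. Outside the list, Ndufa4l2, a mitochondrial protein gene that HIF-1 is known to induce, was at 44.0 and 4.59 FPKM. The enzymes of glycolysis differed by less, with Aldoa at 2391.4 and 1676.3 FPKM, Pgk1 at 407.4 and 273.4 FPKM, Tpi1 at 336.4 and 211.3 FPKM, and Ldha at 683.3 and 543.4 FPKM. Gapdh was at 2056.3 and 2249.8 FPKM. The neuronal enolase Eno2 went the other way, at 2.47 and 8.58 FPKM, and Vegfa, a hypoxia target, was at 56.5 and 71.3 FPKM. In the later re-seedings the medians of the list were -0.09 at 24 h, -0.05 at 48 h and 0.30 at 96 h.

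Shown are the promoters of 4 of the 7 lower genes, taken as examples from the 6 that hold the core of the pathway's known DNA element. They are the 250 bases before the RefSeq start site in GRCm38.p6, which is mm10, written 5′ to 3′ on the strand of the gene, and the capitals mark ACGTG, the core of the hypoxia response element, or its reverse complement CACGT.
Bnip3, chr7:138909507-138909756, minus strand: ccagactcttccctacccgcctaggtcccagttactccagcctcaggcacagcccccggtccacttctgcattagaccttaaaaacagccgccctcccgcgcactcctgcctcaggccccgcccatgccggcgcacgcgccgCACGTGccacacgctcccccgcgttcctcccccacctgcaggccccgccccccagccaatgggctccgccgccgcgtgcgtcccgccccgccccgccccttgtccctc
Egln3, chr12:54203875-54204124, minus strand: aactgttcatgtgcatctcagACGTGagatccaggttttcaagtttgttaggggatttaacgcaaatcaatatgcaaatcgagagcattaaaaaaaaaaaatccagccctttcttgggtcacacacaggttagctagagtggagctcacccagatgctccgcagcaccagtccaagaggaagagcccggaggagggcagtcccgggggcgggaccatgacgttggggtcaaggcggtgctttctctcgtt
Ankrd37, chr8:45999851-46000100, minus strand: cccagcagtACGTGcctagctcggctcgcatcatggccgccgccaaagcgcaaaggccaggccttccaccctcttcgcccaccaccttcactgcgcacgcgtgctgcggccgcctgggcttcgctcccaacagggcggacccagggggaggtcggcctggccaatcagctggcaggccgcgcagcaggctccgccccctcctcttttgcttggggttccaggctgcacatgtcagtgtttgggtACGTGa
Slc2a1, chr4:119108495-119108744, plus strand: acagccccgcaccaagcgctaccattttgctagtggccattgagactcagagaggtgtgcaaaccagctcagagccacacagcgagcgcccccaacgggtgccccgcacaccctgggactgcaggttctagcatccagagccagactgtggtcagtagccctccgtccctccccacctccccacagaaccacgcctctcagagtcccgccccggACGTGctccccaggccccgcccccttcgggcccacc

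The match begins 108 bases before the start site in Bnip3, 229 in Egln3, 36 in Slc2a1, and 241 and 6 in Ankrd37. In Bnip3 the matches on the 2 strands overlap and form an E-box, CACGTG. Of all 27025 genes that have a listed promoter, 18.5% held ACGTG on either strand, and 6.86% held CACGTG. On the list 16 of the 29 genes with a promoter held ACGTG, as did 6 of the 7 that were lower with dox (Ankrd37, Bnip3, Car9, Egln3, P4ha2 and Slc2a1, and not Aldoc). The longer CACGTG was held by 3 of the 29 and by Bnip3 alone of the 7. The octamer ATGCAAAT, a sequence that OCT4 is known to bind, was held by 1.81% of all promoters and by those of Egln3 and Pfkfb3 on this list. These are matches of letters within 250 bases and do not show binding.

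Genes with the higher value in +dox included most targets of p53, the tumour suppressor that halts the cell cycle after stress. Of 24 genes tested 22 had a log2 ratio above 0, and the median was 0.67. At least 2-fold higher were 6 (25%, against 3.62% of all genes), and none was lower. Cdkn1a, the cell cycle inhibitor p21, was at 25.9 FPKM in –dox and 66.4 FPKM in +dox. Perp, a desmosome protein gene, was at 7.14 and 28.0 FPKM, the kinase gene Plk2 at 7.08 and 17.1 FPKM, and the receptor gene Eda2r at 10.2 and 22.7 FPKM. Trp53inp1 was at 23.3 and 47.4 FPKM. Rps27l was at 698.7 and 1414.7 FPKM, and it resembles Rps27, with which it could share reads. Mdm2, the ubiquitin ligase that degrades p53, was 1.77-fold higher at 46.5 and 82.4 FPKM, and the apoptosis genes Bax, Bbc3 and Pmaip1 were 1.23-, 1.37- and 1.26-fold higher. A log2 ratio below 0 was found for 2 genes of the list, and Sesn2 had the lowest, at 45.4 and 22.9 FPKM, 1.98-fold lower. In the 2i/LIF cells Cdkn1a was at 185.0 FPKM and Rps27l at 1416.2 FPKM, so that for these 2 genes the –dox value was the lowest of the 3. The list had medians of 0.26, 0.01 and 0.36 at 24, 48 and 96 h. After scaling by the sum of FPKM its median at 0 h was 0.44, with 20 of 24 genes above 0, 3 at least 2-fold higher and 1 lower, and 1 gene was also lower under each of the other 2 scalings.

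Stress genes outside the p53 list differed one by one. Ddit3, which encodes the stress factor CHOP, was at 63.1 FPKM in –dox and 200.7 FPKM in +dox, whereas Chac1, a glutathione-degrading enzyme downstream of ATF4 and CHOP, was at 42.8 and 4.98 FPKM. Atf4 itself was at 243.9 and 221.9 FPKM. These were the only 2 of the 29 genes of the integrated stress response that passed 2-fold, and the median was 0.19, or -0.04 after scaling by the sum. Gadd45g, a growth arrest gene, was at 11.4 and 56.5 FPKM.

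**Figure D3:**
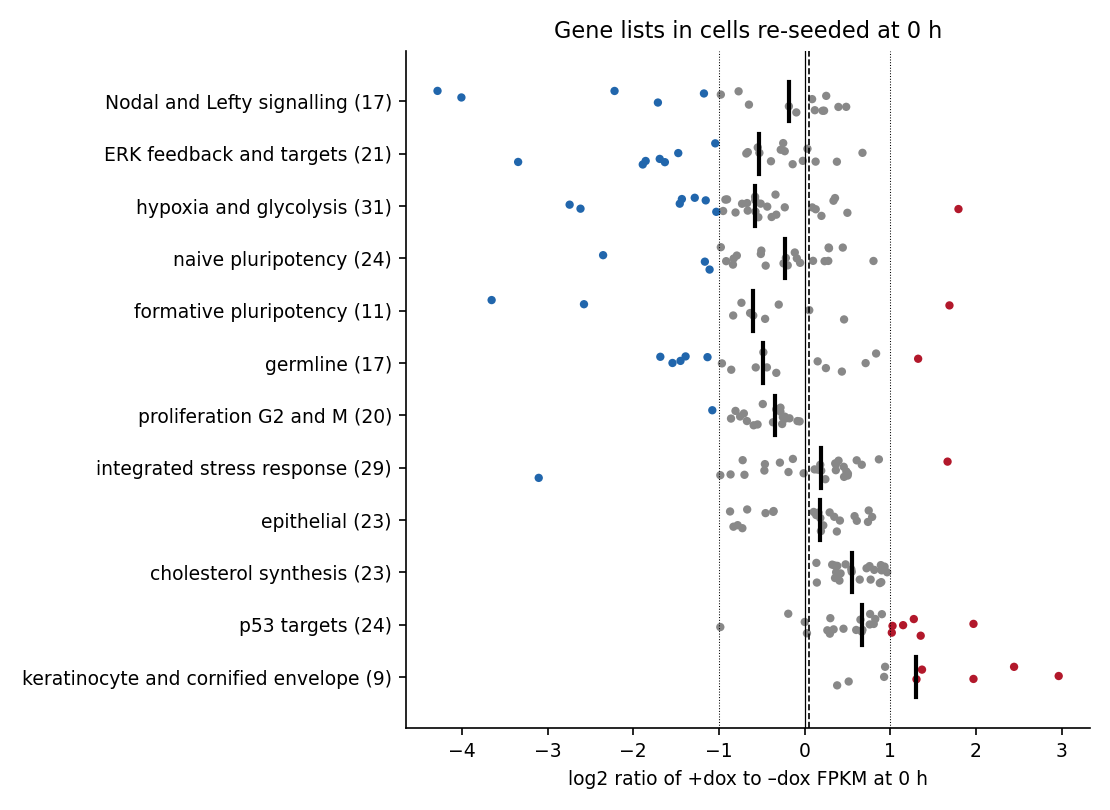
Log2 ratios of +dox to –dox FPKM at 0 h for the genes of 12 lists with at least 1 FPKM in either condition (number in parentheses), 1 point per gene, red or blue past 2-fold (dotted lines), with the list median as a black bar. The dashed line is the median of all genes, 0.05; the medians run from -0.60 for formative pluripotency to 1.31 for keratinocyte genes.

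Genes of keratinocytes and the cornified envelope were few in these cells, but all 9 that passed 1 FPKM had the higher value in +dox. Of these, 5 (55.6%, against 3.62% of all genes) were at least 2-fold higher. Before re-seeding, in 2i/LIF, the 9 genes summed to 327.0 FPKM, against 102.7 FPKM in –dox and 250.6 FPKM in +dox. The +dox sum thus lay between the other 2, and most of each sum was Fam25c. Fam25c was at 286.2 FPKM in 2i/LIF, 58.2 FPKM in –dox and 150.5 FPKM in +dox, whereas Krtdap was at 2.46 FPKM in 2i/LIF. Krtdap, a gene of keratinocyte differentiation (chromosome 7, 30787896 to 30791097), was at 2.41 and 13.1 FPKM, Sbsn at 5.85 and 14.5 FPKM, Dmkn at 0.45 and 3.53 FPKM, and Perp stands on this list too. The keratin genes Krt10 and Krt16 were at 1.28 and 2.43 FPKM and at 0.67 and 1.28 FPKM. Among the 15 largest ratios of genes that reached 10 FPKM, several more are known from epithelia. Aqp3, a water and glycerol channel, was at 13.4 and 71.3 FPKM, the calcium-binding S100a6 at 102.3 and 368.8 FPKM, and Nccrp1 at 3.66 and 12.5 FPKM. The general epithelial genes did not share this, with none of 23 past 2-fold, a median of 0.18, and Cdh1, the adhesion molecule E-cadherin, at 112.4 and 121.0 FPKM.

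The remaining large ratios belonged to single genes of different kinds. Gata2, a zinc-finger transcription factor of blood and trophoblast (chromosome 6, 88193891 to 88207032), had the largest among genes that reached 10 FPKM, 13.3-fold, at 1.22 FPKM in –dox and 16.3 FPKM in +dox. Of the other 13 trophoblast genes tested only Lcp1, which encodes an actin-bundling protein, was also at least 2-fold higher, at 0.62 and 1.38 FPKM. Gata3 was at 2.08 and 1.52 FPKM, Tfap2c at 12.2 and 13.98 FPKM and Hand1, the 1 lower gene of the list, at 3.98 and 1.69 FPKM. Herc1, a very large ubiquitin ligase gene, was at 2.69 and 14.6 FPKM, Gad1, which makes the transmitter GABA, at 2.69 and 11.6 FPKM, and the guidance factor gene Ntn1 at 2.56 and 10.99 FPKM. Hotairm1, a noncoding RNA of the HoxA cluster, was at 2.86 and 14.4 FPKM, and since the strand used in counting is not stated, reads of genes on the other strand could be included. Papl was at 2.73 and 10.1 FPKM, 4933402E13Rik at 3.79 and 14.02 FPKM, Tmsb15l at 4.26 and 15.3 FPKM, and the actin-binding Ablim1 at 3.74 and 12.8 FPKM.

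Among the 15 largest ratios in the other direction, again of genes that reached 10 FPKM, Igfbp4, which binds insulin-like growth factors (chromosome 11, 99041244 to 99054392), was at 21.6 FPKM in –dox and 1.35 FPKM in +dox, 15.9-fold lower. Gm26870 was at 26.6 and 2.33 FPKM and Gm10800 at 53.4 and 5.87 FPKM. Both lie in stretches of satellite-like repeats in mm10, so their values rest on reads that can match many copies. Gm5091, a long noncoding RNA, was at 11.4 and 1.40 FPKM, and 4930432K21Rik at 12.0 and 2.72 FPKM.

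Lineage genes differed from list to list. Of 18 mesoderm and endoderm genes, 4 passed 1 FPKM. Gata6 was at 0.78 FPKM without and 1.65 FPKM with dox, and Hand1 was lower. In primitive endoderm 9 of 11 genes had the higher value in +dox, also under each of the 3 scalings, and 2 were at least 2-fold higher, Gata6 and Lama1, a laminin chain gene at 8.61 and 23.0 FPKM, and the median was 0.58. Of 7 neurectoderm genes 3 were at least 2-fold lower (42.9%, against 5.61% of all genes) and 1 was higher (14.3%, against 3.62%). Tubb3 was at 7.89 and 2.99 FPKM, Pax6 at 1.98 and 0.60 FPKM, and Map2 at 0.96 and 3.36 FPKM. Fibroblast genes over 1 FPKM all had the higher value in +dox, 11 of 11, or 9 after scaling by the sum, but at low levels for those past 2-fold, with Acta2 at 2.61 and 6.13 FPKM, Lox at 1.09 and 2.51 FPKM, Col1a2 at 0.79 and 1.62 FPKM, and S100a4 at 1.23 and 3.001 FPKM. The feeder markers named above summed to 6.48 and 10.5 FPKM, with Twist2 and Lum at 0 and Dcn at 0.09 FPKM in –dox, and their part in the difference was not tested. Of the EMT genes 3 were higher, Cdh2, Snai1 (1.46 and 3.62 FPKM) and Itgb3 (0.59 and 1.85 FPKM), out of 16 tested (18.75%, against 3.62% of all genes). All 3 were under 5 FPKM, where higher genes are more frequent (10.7% of all genes between 1 and 2 FPKM and 6.17% between 2 and 5 FPKM).

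Germline genes included 5 of 17 that were lower (29.4%, against 5.61% of all genes) and 1 that was higher. Stra8, a meiosis gene, was at 15.3 FPKM in –dox and 4.76 FPKM in +dox, Hormad1 at 22.6 and 8.29 FPKM, Tex101 at 5.38 and 2.05 FPKM, Slc25a31 at 2.61 and 0.89 FPKM, and Tex19.1 at 36.0 and 16.4 FPKM. Rhox6, a homeobox gene of the X-linked Rhox cluster, was at 13.4 and 33.6 FPKM, and it resembles Rhox9, with which it could share reads. Among 20 imprinted genes H19 was at 188.8 and 65.6 FPKM and Mirg at 32.6 and 10.9 FPKM, whereas Plagl1 was at 3.32 and 6.99 FPKM. The neighbours of Mirg in its cluster were less apart, with Meg3 at 248.5 and 164.0 FPKM and Rian at 216.8 and 160.3 FPKM.

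Genes past 2-fold at 0 h were for the larger part not past it in the same direction after withdrawal. The 4 comparisons share no samples. Of the 462 genes higher at 0 h, 60 were also higher at 24 h (13.0% of them, and 16.4% of the 24 h list), 80 at 48 h (17.3% and 9.63%) and 88 at 96 h (19.05% and 10.4%). Only 325, 346 and 338 of the 462 reached 1 FPKM at those times, and of these 18.5%, 23.1% and 26.0% were higher. The shares of all genes called higher, over the same kind of genes, were 2.87%, 6.56% and 6.67%. Of the 715 lower genes, 64 were also lower at 24 h (8.95% of them, and 14.8% of that list), 77 at 48 h (10.8% and 9.41%) and 101 at 96 h (14.1% and 7.19%), and of the 587, 521 and 476 that reached 1 FPKM these were 10.9%, 14.8% and 21.2%, against 3.4%, 6.46% and 11.1% of all genes. No time other than 0 h was past 2-fold in the same direction for 302 of the higher and 537 of the lower genes. These counts include genes under 1 FPKM at a later time, which could not be called there. No share over all genes stands beside them, and they are not read as a response particular to 0 h. Among genes that reached 1 FPKM, the shares past 2-fold in the same direction were above those of all genes at each time. So were the shares in the opposite direction. Of the genes higher at 0 h, 6.15%, 9.83% and 16.3% were lower at 24, 48 and 96 h, against 3.4%, 6.46% and 11.1% of all genes. Of the genes lower at 0 h, 3.07%, 11.7% and 9.66% were higher, against 2.87%, 6.56% and 6.67%. The part of expression level in these shares was not tested.

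Higher with dox at all 4 times were 15 genes, 5830454E08Rik, Aqp3, Ccdc141, Cd109, Dpysl3, Emp1, Fam25c, Gad1, Herc1, Klk10, Krtdap, Nccrp1, Npcd, Pla2g7 and S100a4. Krtdap had the pattern at its plainest. Its –dox values at 24, 48 and 96 h were 2.17, 2.98 and 3.72 FPKM and its +dox values 34.0, 99.0 and 137.1 FPKM. For Aqp3 the log2 ratio was 2.42 at 0 h and, in time order after withdrawal, 1.15, 1.42 and 2.18. Lower at all 4 times were 12 genes, Ap3b2, Car4, Cdc42ep2, Gm10762, H19, Hand1, Id3, Igfbp4, Irf1, Irgm1, Lef1 and Loxl2. H19, a noncoding RNA that is abundant in embryonic tissue, was at 1255.8 and 166.3 FPKM in –dox and +dox at 24 h, and at 11602.2 and 2214.5 FPKM at 96 h. Lef1 had log2 ratios of -3.65, -1.88, -1.65 and -1.76.

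**Figure D4:**
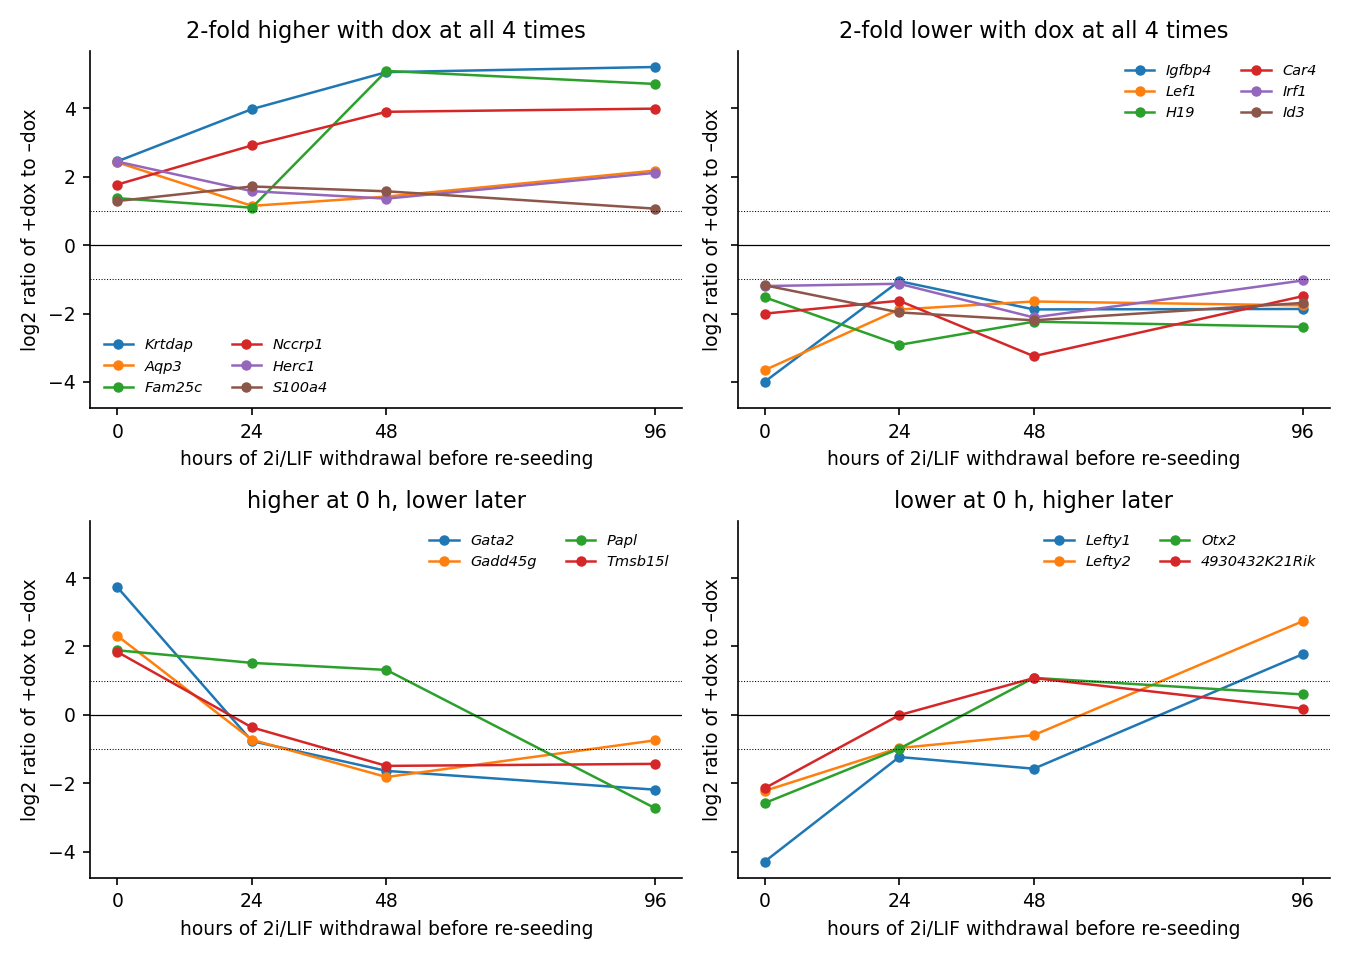
Log2 ratios of +dox to –dox FPKM (vertical axis) after 0, 24, 48 and 96 h of 2i/LIF withdrawal before re-seeding (horizontal axis) for genes past 2-fold at 0 h, with dotted lines at 2-fold. The upper panels show genes past 2-fold one way at all 4 times, and the lower panels genes among the 15 largest ratios at 0 h (of those that reached 10 FPKM) that were past 2-fold the other way at 48 or 96 h.

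The genes were also set against the first day of 2i/LIF withdrawal, a comparison chosen after the values were seen and one that shares no samples with the re-seeded cells. Of the genes higher with dox, 355 reached 1 FPKM there. Of these, 145 were at least 2-fold lower at 24 h of withdrawal than at 0 h, 40.8% against 14.3% of all genes, and 46 were higher, 12.96% against 8.64%. Of the genes lower with dox, 593 reached 1 FPKM, 165 of them were higher at 24 h, 27.8% against 8.64%, and 90 were lower, 15.2% against 14.3%. Fibroblast and feeder markers summed to 793.4 FPKM in the 0 h sample of this comparison. The part of such RNA in these shares was not tested. Gene by gene, Aqp3 was at 54.9 FPKM in 2i/LIF, between its –dox and +dox values, and Spry4, Dusp6 and Egr1 are among those that were lower with dox and higher at 24 h.

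Of 126 families defined by a shared symbol stem with at least 10 expressed genes, the collagens (Col) had the largest share of lower genes, 5 of 16. They were Col2a1 (1.47 and 0.39 FPKM), Col7a1, Col20a1, Col26a1 and Col6a5, and all 5 were under 3 FPKM, where lower genes are frequent (17.4% of all genes between 1 and 2 FPKM and 10.4% between 2 and 5 FPKM, against 5.61% at any level). The stems named are the extremes of the 126, most with 2 or 3 such genes, and nothing is read from their shares. The carbonic anhydrases followed with 3 of 10, Car4 (11.4 and 2.83 FPKM), Car7 and Car9, and Car13 was higher at 4.88 and 13.8 FPKM. The phospholipases (Pla) had 3 of 11 lower, Pla2g10, Pla2g2c and Pla2g5, and 2 higher, Pla1a and Pla2g7. Lower genes were 3 of 13 among the cytochrome P450 genes (Cyp) and 3 of 16 each for the stems Bcl and Tex. The heat shock family (Hspa) had the largest share of higher genes, 2 of 10, with Hspa1b at 0.60 and 9.28 FPKM and Hspa12a at 2.04 and 4.42 FPKM, and the stems Lrp, Mfsd and Mtmr each had 2 of 11, against 3.62% of all genes. Hspa1b is nearly identical to Hspa1a, so its value is uncertain.

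Genes of cholesterol synthesis and of mitosis differed by less than 2-fold but in one direction each. All 23 cholesterol genes tested had the higher value in +dox, with log2 ratios from 0.14 to 0.96 and a median of 0.55, and none passed 2-fold. Together they summed to 543.4 FPKM in –dox and 779.4 FPKM in +dox. After scaling by the sum of FPKM 21 of the 23 stayed above 0. All 20 genes of the G2 and M phases had the lower value in +dox, with a median of -0.35, under each of the 3 scalings as well. Cenpe, a kinetochore motor gene, was the only one past 2-fold at 23.1 and 10.9 FPKM, and Cdk1 was at 239.8 and 158.8 FPKM. At 24 h the medians of the cholesterol and the G2 and M lists were 0.17 and -0.07. At 48 h they were -0.04 and 0.19, and at 96 h 0.33 and 0.67, so the G2 and M median was above 0 at both of these times.

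A further family was chosen after its values were seen. Of 289 expressed genes with symbols starting Zfp, most of which encode zinc-finger proteins, 52 (17.99%) were at least 2-fold lower with dox, 5 were higher, and 214 had a log2 ratio below 0, with a median of -0.38. The share of lower genes was above that of all genes in every class of expression, with 27.9% against 17.4% between 1 and 2 FPKM, 13.6% against 5.45% between 5 and 10 FPKM, and 9.09% against 2.56% between 10 and 50 FPKM. Only 10 of these genes reached 50 FPKM, and 2 of them were lower. In the later re-seedings 10 of 298 were lower at 24 h, 20 of 297 at 48 h and 24 of 300 at 96 h. These were 3.36%, 6.73% and 8%, near or below the 3.4%, 6.46% and 11.1% of all genes. The medians of the Zfp genes were -0.15, -0.05 and -0.10, against 0.02, -0.02 and -0.01 for all genes. Many of these genes are members of repeated clusters with related sequence, and reads could be split between them.

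**Figure D5:**
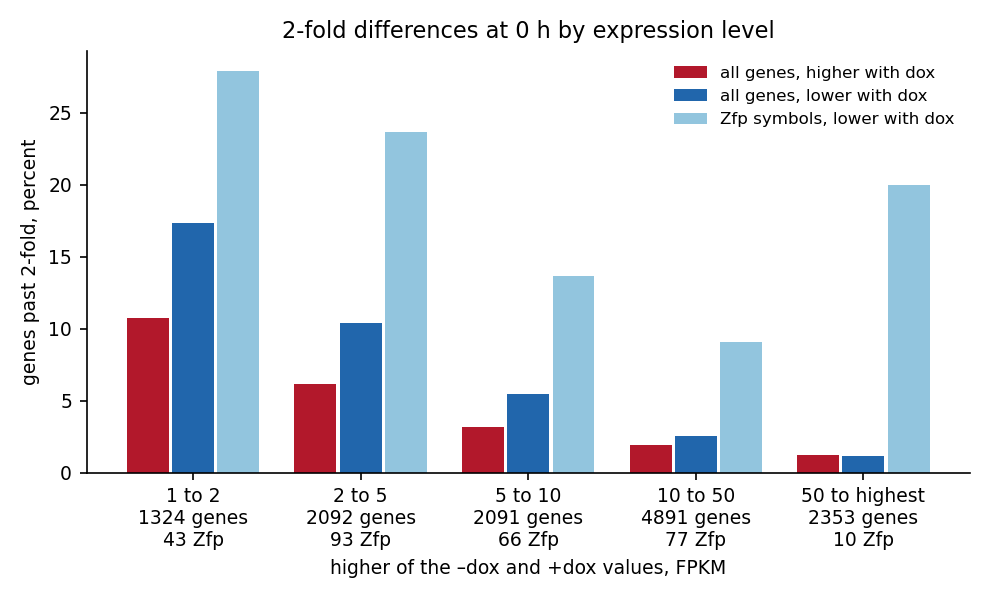
Percent of genes past 2-fold at 0 h (vertical axis, from 0) by expression class, taken as the larger FPKM of both conditions (horizontal axis), for all genes higher with dox (red), all genes lower (dark blue) and genes with Zfp symbols lower (light blue), with the number of genes under each class. The shares of all genes past 2-fold are lower at higher expression, and the Zfp bar is the tallest of each class.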

How the data were processed

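PolyA RNA was sequenced on a HiSeq 2000. According to the methods, the authors mapped reads to mm10 with TopHat2 2.0.14 and Gencode vM4, used Cufflinks 2.2.1 to quantify transcripts that belong to 6 biotypes and are not shorter than 200 bp, and ran Cuffdiff, whose library normalization is not given in the sources used here. The deposited table holds FPKM values made by the authors, 1 for each of 15 conditions with 2 replicates each. No counts or replicate values were used, so depth is not known and no test, standard deviation or interval is given. As a rough guide, the smallest values above 0 in long genes, times length in kb, were 0.020 in –dox and 0.023 in +dox at 0 h. They were 0.022 and 0.023 at 24 h, 0.065 and 0.065 at 48 h, 0.060 and 0.051 at 96 h, and 0.063 in 2i/LIF. Depth may therefore differ between times, and its part in comparisons between them was not tested. Columns with the authors' calls (3 dynamic groups, and genes induced, repressed or unresponsive after dox) were not used.

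Samples were grouped by the labels. Genes with at least 1 FPKM in –dox or +dox were kept. Log2 ratios have no pseudocount, and genes at 0 have none. A gene was called at a plain ratio of at least 2, including 2 called genes at 0 in –dox and 11 at 0 in +dox. Single genes are named by a rule: the OSKM genes, Nanog, Esrrb, Zfp42 and Tfcp2l1, genes of 32 lists past 2-fold, and the 15 largest ratios in each direction among genes that reach 10 FPKM, and families by symbol stem (the 5 largest shares in each direction). Other members of a list are given as examples chosen after their values were seen. The members and the lists were chosen with earlier results of these data known. The names 1-Mar and 2-Mar stand on 4 rows, which were kept apart. Gene positions and lengths are from Gencode M21, and promoters from RefSeq for GRCm38.p6. Python 3.11.15, numpy 2.4.6, pandas 2.3.3 and matplotlib 3.10.9 were used, and the counting was tested on simulated data. The alternatives were other minimum levels, other folds, added FPKM and 3 scalings. Some genes of the lists are not reported here by name.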

Additional observations from a re-analysis of the deposited data

Results flagged for a closer look

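Among the 30 genes with the largest ratios at 0 h, taken from those that reached 10 FPKM, 10 had a ratio past 2-fold in the opposite direction in a later re-seeding. Of all genes 2.87%, 6.56% and 6.67% were higher with dox at 24, 48 and 96 h, and 3.4%, 6.46% and 11.1% were lower. Each of the 30 genes could pass at any of these times. The share of all genes that did so was not counted, and the 10 are not read as unusually many. With 1 value per condition the difference between times was not tested for any of the 10. Higher with dox at 0 h and lower later were Gata2, with a log2 ratio of +dox to –dox of -1.63 at 48 h and -2.18 at 96 h, Gadd45g, with -1.81 at 48 h, Papl, with -2.73 at 96 h, and Tmsb15l, with -1.49 at 48 h and -1.43 at 96 h. Lower at 0 h and higher later were Lefty1, with 1.78 at 96 h, Lefty2, with 2.74 at 96 h, Otx2, with 1.08 at 48 h, 4930432K21Rik, with 1.08 at 48 h, and the repeat-derived Gm26870 and Gm10800, with 1.18 and 1.46 at 96 h. The levels behind these ratios differed widely. Gata2 was at 49.7 FPKM in –dox and 10.9 FPKM in +dox at 96 h, and Gadd45g at 24.1 and 6.84 FPKM at 48 h. Otx2 was at 13.1 and 27.8 FPKM at 48 h. Lefty1 and Lefty2 were low at 96 h, at 1.32 and 4.54 FPKM and at 0.64 and 4.29 FPKM, as was Papl, at 1.42 and 0.21 FPKM.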

How the results depend on the processing

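No paired analysis was possible because the table gives 1 combined value for each pair of replicates, and for the same reason no replicate could be left out. Depth is not known. The 462 higher genes became 1289 with no minimum on FPKM, 260 with 1 FPKM in both conditions, 191 with 5 FPKM and 124 with 10 FPKM in the higher, 1476, 140 and 71 at 1.5-, 3- and 4-fold, 206 with 1 FPKM added, and 275 after scaling by the sum. The 715 lower genes became 2105, 400, 267, 153, 1677, 237, 112, 280 and 1171 in the same order. Scaling by median ratios gave 435 and 752 and by the upper quartile 358 and 885.

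List medians moved by over 1.5-fold, a tolerance set in place of a replicate spread, in 7 of 277 alternatives: carbonic anhydrases 0.20 with 1 FPKM in both, fibroblast genes 0.17 with 10 FPKM, mesoderm and endoderm 0.74 with no minimum and -0.57 with 1 FPKM in both, and neurectoderm -0.72 with 1 FPKM in both, -1.53 with 5 FPKM and -1.65 with 10 FPKM. Some medians that moved less far still changed sign. With no minimum they became 0.09 for BMP and Id genes, 0.02 for WNT targets and 0.52 for neurectoderm, and with 10 FPKM 0.25 for trophoblast (0.20 with 5 FPKM), 0.03 for interferon response and 0.12 for G1 genes (0.03 with 5 FPKM). After scaling by the sum they became -0.13 for MYC targets, -0.06 for cytoskeletal targets, -0.05 for epithelial, -0.03 for housekeeping, -0.04 for integrated stress response and -0.14 for mesoderm and endoderm genes, and after quartile scaling -0.00 for MYC targets and -0.01 for mesoderm and endoderm.

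Shares of all 0 h genes past 2-fold the same way later left the 95% exact binomial interval of the value in the report, an interval over genes used only as a tolerance, in 35 of 72 alternatives of level, fold, added FPKM or scaling. For higher genes at 24 h they were 9.62% with 1 FPKM in both, 8.06% with 10 FPKM, 18.6% at 1.5-fold, 8.57% at 3-fold and 8.45% at 4-fold. At 48 h they were 11.9% with 1 FPKM in both, 13.1% with 5 FPKM, 12.9% with 10 FPKM, 21.5% at 1.5-fold, 10.7% at 3-fold and 9.86% at 4-fold, and at 96 h 15.1% with no minimum, 14.2% with 1 FPKM in both, 15.2% with 5 FPKM and 15.3% with 10 FPKM. For lower genes at 24 h they were 18.95% with no minimum, 17.2% at 1.5-fold, 3.38% at 3-fold, 5.36% at 4-fold and 11.9% after quartile scaling. At 48 h they were 15.8% with no minimum, 7.50% with 1 FPKM in both, 16.04% at 1.5-fold, 7.17% at 3-fold, 6.25% at 4-fold and 8.57% with 1 FPKM added. At 96 h they were 21.9% with no minimum, 10.3% with 1 FPKM in both, 9.74% with 5 FPKM, 9.15% with 10 FPKM, 22.5% at 1.5-fold, 10.97% at 3-fold, 8.04% at 4-fold, 11.1% with 1 FPKM added and 17.0% after scaling by the sum. Why they moved was not tested.

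Of the 100 named genes recomputed, none changed its direction with added FPKM or another scaling. With 1 FPKM added 16 log2 ratios moved by over 1.5-fold and 21 genes changed their side of 2-fold, among them genes under 1 FPKM in one condition such as Cdh2 (0.69) and Pax6 (-0.90). The values became -2.73 for Egr1, 2.96 for Gata2, -3.26 for Igfbp4, -2.36 for Lef1 and -3.51 for Lefty1. Scaling by the sum led 10 genes to change side, with Sox2 and Zfp42 passing 2-fold and Eda2r (0.92), Rps27l (0.79), Trp53inp1 (0.80), Gata6 (0.85), Col1a2 (0.81), Lox (0.97), Lcp1 (0.94) and Plagl1 (0.85) no longer passing it.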

Other observations

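Other gene groups differed little at 0 h. Of 30 MYC targets in ribosome biogenesis none passed 2-fold, with a median log2 ratio of 0.10 that turned to -0.13 after scaling by the sum of FPKM, and with Gnl3 at 112.3 FPKM in –dox and 81.1 FPKM in +dox at one end and Nhp2 at 176.9 and 279.3 FPKM at the other. Among 18 LIF receptor and STAT3 targets Cish was at least 2-fold higher, at 0.61 and 1.59 FPKM, and Gbx2 and Sgk1 were lower, Sgk1 at 95.6 and 42.5 FPKM, whereas Stat3 was at 30.3 and 38.1 FPKM and Socs3 at 73.6 and 73.5 FPKM. Of 15 interferon response genes B2m, a subunit of class I major histocompatibility complexes, was at 19.2 and 49.1 FPKM, and Irf1 at 24.7 and 10.8 FPKM. B2m stood at 449.1 FPKM in the 2i/LIF cells. Of 19 genes of the G1 phase and its inhibitors Cdkn1a alone passed 2-fold. S100a6 and Acta2 were the higher and Ajuba (51.1 and 22.2 FPKM) the lower of 23 cytoskeletal, YAP and SRF targets, whose median of 0.17 turned to -0.06 after scaling by the sum. Of the 17 two-cell-like genes in the table only Eif1a reached 1 FPKM, at 57.1 and 48.3 FPKM.

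Genes of 2 multisubunit machines had the higher value in +dox by small ratios, a pattern noticed in the data. All 10 genes with symbols starting Ndufb, which encode subunits of mitochondrial complex I, had a log2 ratio above 0, with a median of 0.49, or 0.26 after scaling by the sum. Of 55 Rpl and 46 Rps symbols, 47 and 40 were above 0, with medians of 0.27 and 0.32, but after scaling by the sum only 31 and 30 were, with medians of 0.04 and 0.09. Short transcripts as a class leaned the same way, and the part of length in these ratios was not tested. Of 14 housekeeping genes 12 were above 0 and B2m passed 2-fold, with a median of 0.20 that turned to -0.03 after scaling by the sum.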
